A study of Rattus norvegicus with 4 samples.

Results

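Chemokines, interleukins and the ligands and receptors of the tumour necrosis factor (TNF) family were described in cultured neonatal rat heart muscle cells with and without phenylephrine (PE). The members were the protein-coding genes whose symbols name a chemokine or chemokine receptor, an interleukin or interleukin receptor, or a TNF superfamily ligand or receptor, with Il6, Il6st and Il11 left out. By that rule 159 of the 32883 genes in the count table were members, and the 107 with a summed count of at least 15 over the 4 libraries are described here. Of the other 52, 26 had no read and 26 had 1 to 14 reads in all. Tnf itself was among the latter, with 1, 1, 0 and 1 reads. Just inside that limit lay Ccl11 and Tnfrsf8 with 16 reads each and Cxcl9 with 17, and just outside it lay Ackr2 with 14 and Il2rb and Il5ra with 13.

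Ventricular cardiomyocytes of Sprague-Dawley rats at postnatal day 2 were freed of most attaching cells by plating for 1 h and were then grown in medium with 10% fetal bovine serum. Cells of 2 libraries received 20 µM PE for 24 h, and cells of the other 2 were labelled untreated. PE is an agonist of alpha-1 adrenergic receptors and a common inducer of hypertrophic growth in these cells. Total RNA was depleted of ribosomal RNA and sequenced with strand information. The protocol text in the labels mentions PE for every sample, so the groups rest on the titles and the treatment label. Nothing in the labels says that the replicates came from separate cultures, so the tests reflect the spread of these 4 libraries alone, which may be technical.

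Chemokines are small secreted proteins that guide leukocytes by binding G protein-coupled receptors, and atypical receptors such as Ackr3 bind them without that signal. Several interleukins of the IL-1 family bind a specific receptor chain that pairs with the shared accessory chain Il1rap and signals through Myd88 and NF-kB. TNF family receptors recruit Traf adaptors, and some recruit death domain proteins. In the heart these proteins are made by cardiomyocytes, fibroblasts, endothelium and resident macrophages, and the IL-33 receptor ST2, encoded by Il1rl1, is known as a gene induced by mechanical strain in cardiomyocytes.

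Of the 107 described members, 95 passed the expression filter and were tested with edgeR's quasi-likelihood test over 15257 genes. With a Benjamini-Hochberg adjusted p under 0.05 as the threshold, 12 rose, 10 fell and 73 did not pass. Over all tested genes 15.7% passed, with 7.39% higher and 8.3% lower, and among the tested members 23.2% passed. The median log2 fold change (PE over control) was -0.27 over the tested members and -0.01 over all tested genes. Cxcl14, which rose, had passed the filter only through its PE libraries, as had Il36b and Il10, which did not pass the test. The 12 members under the filter were Ccl11, Cxcl9, Ccr7, Ccr10, Il9r, Il12b, Il17f, Il19, Il22ra2, Tnfsf10, Tnfrsf8 and Tnfrsf17. With these tested as well through a minimum summed count of 15, 12 were higher and 10 lower, whereas with no filter on any gene 16 were higher and 21 lower. Over all genes 2403 passed with that minimum and 3189 with no filter, against 2393 in the main fit. More members passed without either control library and fewer without either PE library, and the same was seen over all tested genes. Such fits leave 1 library in a group, so their calls rest on an assumed spread for it. Calls of single members gained or lost in this way, given below, share that limit.

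Total counts ran from 45637881 to 56948370 per library, and the described members took 0.307% to 0.483% of them. The 13 mitochondrially encoded genes took 11.2% of counts in control replicate 2 and 4.49% to 6.04% in the other libraries. Cardiomyocyte markers were present at a high level, with 29081 to 29826 CPM summed over 11 genes in the controls and 31347 to 33938 CPM with PE. CPM are counts scaled to library size and not to gene length, so levels are compared only within a gene or list. Markers of other cells were present too, and the summed levels of all lists but that of mural cells were lower in both PE libraries. The 18 leukocyte markers summed to 412 and 489 CPM in the controls and to 300 and 277 CPM with PE, and 5 of the 12 tested fell. Cd3e and Ms4a1 of T and B cells had no read in any library, and S100a8 and S100a9 of neutrophils had at most 3 in a library. The 9 endothelial markers summed to 225 and 224 CPM against 136 and 141 CPM, with 5 of 8 tested lower. The 10 fibroblast markers summed to 18178 and 16286 CPM against 10096 and 10010 CPM, with 2 of 9 tested lower and a median log2 fold change of -0.02. Mesothelial and epicardial markers summed to 226 and 192 CPM against 124 and 132 CPM, with 3 of 7 tested lower and 1 higher. The 7 mural cell markers overlapped between the groups, at 962 and 802 CPM against 843 and 996 CPM, with 1 higher and 1 lower. In such bulk RNA, fewer cells of a type and less RNA per cell cannot be told apart. The part of these shifts in the falls described further on was not tested.

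Sequences upstream of 6 members that passed are shown to give the letters before the start of genes described further on, and no result rests on them: the receptor chains and ligand of the IL-33 pair, the TWEAK receptor gene Tnfrsf12a, and the chemokine genes Ccl20, which rose, and Cxcl11, which fell. Each is the 250 bases before the annotated start, from RefSeq on build GRCr8. Capitals mark matches, on either strand, to any of 6 motifs: AP-1 (TGANTCA), the cyclic AMP element (TGACGTCA), NF-kB, an interferon response core (GAAA, any 2 bases, then GAAA), the CArG box and the TEAD motif (GGAATG). No match in these windows overlapped another.
Il1rl1, chr9:50203388-50203637, plus strand: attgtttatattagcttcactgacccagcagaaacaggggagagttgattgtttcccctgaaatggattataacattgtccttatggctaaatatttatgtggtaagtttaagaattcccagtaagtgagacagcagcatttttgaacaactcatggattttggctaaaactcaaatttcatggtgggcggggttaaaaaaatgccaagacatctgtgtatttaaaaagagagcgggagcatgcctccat
Il1rap, chr11:87704343-87704592, minus strand: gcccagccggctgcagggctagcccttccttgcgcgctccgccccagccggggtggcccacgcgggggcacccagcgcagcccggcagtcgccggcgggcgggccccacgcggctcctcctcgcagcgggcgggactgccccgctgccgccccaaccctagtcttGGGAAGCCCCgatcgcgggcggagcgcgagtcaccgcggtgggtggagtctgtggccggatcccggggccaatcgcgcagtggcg
Il33, chr1:237115323-237115572, plus strand: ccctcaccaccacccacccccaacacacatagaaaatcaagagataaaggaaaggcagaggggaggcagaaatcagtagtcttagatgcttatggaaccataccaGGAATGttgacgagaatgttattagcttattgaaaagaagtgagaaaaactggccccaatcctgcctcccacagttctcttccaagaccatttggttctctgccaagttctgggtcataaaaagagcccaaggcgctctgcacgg
Tnfrsf12a, chr10:13213649-13213898, minus strand: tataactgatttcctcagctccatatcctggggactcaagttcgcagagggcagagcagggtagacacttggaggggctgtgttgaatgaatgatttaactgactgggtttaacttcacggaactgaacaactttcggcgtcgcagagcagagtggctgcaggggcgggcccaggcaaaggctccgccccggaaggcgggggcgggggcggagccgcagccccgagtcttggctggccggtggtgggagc
Ccl20, chr9:91836909-91837158, plus strand: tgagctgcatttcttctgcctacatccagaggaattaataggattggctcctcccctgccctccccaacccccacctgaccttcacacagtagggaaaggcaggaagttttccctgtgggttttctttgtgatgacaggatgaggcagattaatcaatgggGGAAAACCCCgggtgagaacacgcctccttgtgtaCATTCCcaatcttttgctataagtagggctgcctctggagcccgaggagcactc
Cxcl11, chr14:15973478-15973727, plus strand: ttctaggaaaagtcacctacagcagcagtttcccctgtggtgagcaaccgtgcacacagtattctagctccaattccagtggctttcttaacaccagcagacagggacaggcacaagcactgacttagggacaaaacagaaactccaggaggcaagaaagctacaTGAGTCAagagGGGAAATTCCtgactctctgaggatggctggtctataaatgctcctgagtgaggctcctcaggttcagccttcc

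Positions are counted back from the start, with base -1 next to it. The Ccl20 window held an NF-kB match from -89 to -80 and a TEAD match from -54 to -49, both on the other strand. The Cxcl11 window held an AP-1 match from -85 to -79 and an NF-kB match from -74 to -65. An NF-kB match on the other strand lay from -85 to -76 before Il1rap, and a TEAD match from -145 to -140 before Il33. The windows of Il1rl1 and Tnfrsf12a held none of the 6 motifs. Windows were found for 80 of the 107 members, and for 17 of the 22 that passed. Those without were Ccl5, Il34, Il7, Il18rap and Il13ra2. NF-kB matches lay in 7 of 21 chemokine ligand windows (Cxcl1, Cxcl2, Cxcl6, Ccl9, Ccl20, Cxcl10 and Cxcl11), or 33.3%, and in 3.52% of all 27457 windows of that length. AP-1 matches lay in 4 of those 21 windows (Ccl7, Cxcl10, Cxcl11 and Cxcl14), or 19%, and in 6.36% of all windows. A match is a string of letters and not a measured site.

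The IL-33 receptor chains rose and their ligand fell. In what follows, paired values are those of replicates 1 and 2. Il1rl1 (ENSRNOG00000014835) was at 14.3 and 16.8 CPM in the controls and at 131 and 98.9 CPM with PE. The groups lay far apart, and PE replicate 1 was the higher of the PE pair. The log2 fold change was 2.89 ± 0.20 (SE), or 7.39-fold (adjusted p = 2.24e-05, n = 2 per group). Il1rl1 gives rise to a membrane receptor and a soluble decoy, which counts per gene do not separate. Il1rap (ENSRNOG00000001928), the shared accessory chain, was at 8.4 and 8.36 CPM in the controls and at 25.5 and 24.7 CPM with PE. Its replicates lay close together, and it rose by 1.58 ± 0.18 (adjusted p = 0.000283). Il33 (ENSRNOG00000016456), a nuclear cytokine released from damaged cells, was at 10.4 and 18.1 CPM in the controls and at 4.33 and 3.28 CPM with PE. The controls differed from each other more than the PE libraries did, yet both lay above both PE values. Il33 fell by 1.90 ± 0.28 on the log2 scale (adjusted p = 0.00143), and by 1.44 without control replicate 2. In the GRCr8 annotation Il1rap and Il33 each overlap a long noncoding RNA gene. Such overlaps were taken from whole gene spans, without regard to exons or strand, so an effect on the counts is possible but was not checked.

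**Figure D1:**
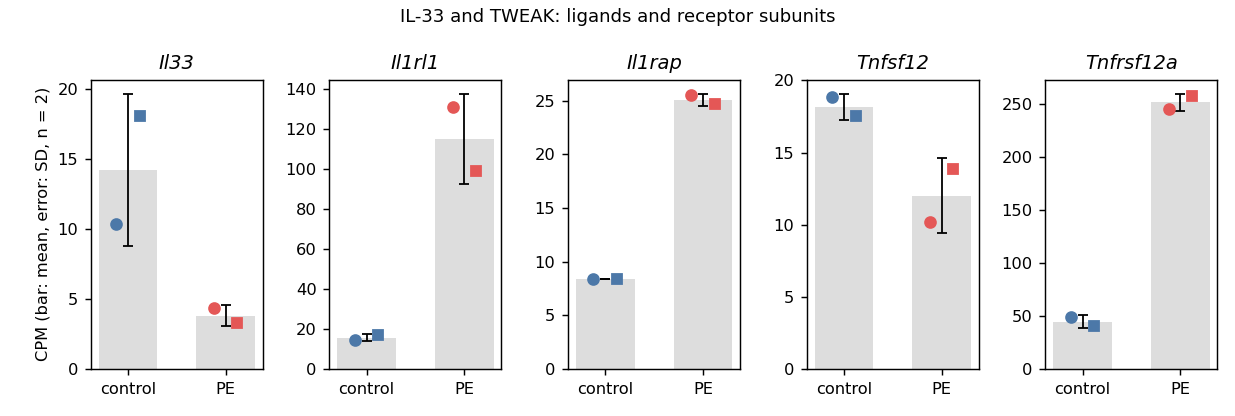
CPM of Il33, its receptor chains Il1rl1 and Il1rap, Tnfsf12 (TWEAK) and its receptor Tnfrsf12a in control and PE cells; bars are means, error bars SD (n = 2), circles replicate 1 and squares replicate 2, each panel on its own axis from 0. Il33 was lower and Il1rl1, Il1rap and Tnfrsf12a were higher in both PE libraries than in both controls, while Tnfsf12 was lower in both and did not pass the test.

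Other receptors of the IL-1 family changed less or were low. Il1r1, the signalling receptor of IL-1, had the largest summed count of the interleukin receptors, with 320 and 415 CPM in the controls and 515 and 455 CPM with PE. Both PE values lay above the controls, but its log2 fold change of 0.40 ± 0.18 did not pass (adjusted p = 0.181). Il18rap, the accessory chain of the IL-18 receptor, had 12 and 19 reads in the controls and 73 and 59 with PE. It rose by 2.00 ± 0.44 (adjusted p = 0.012), whereas its partner Il18r1 had 8 to 26 reads per library and was at 0.67 ± 0.69 (adjusted p = 0.582). The decoy receptor Il1r2 (0.57 ± 0.31) and the IL-36 receptor Il1rl2 (-0.41 ± 0.21) did not pass (adjusted p = 0.27 and 0.241). Among the ligands of these receptors, Il1b was at 0.51 ± 0.25 and Il1a at 0.02 ± 0.41 (adjusted p = 0.211 and 0.982). Il1a was at 3.15 and 9.74 CPM in the controls and at 7.36 and 5.66 CPM with PE, and without control replicate 1 it was lower with PE, at -0.57 (adjusted p = 0.021). Il1rn, the IL-1 receptor antagonist, had the largest summed count of the interleukin ligands and antagonists. It was at 35.9 and 39.6 CPM in the controls and at 31.6 and 25.1 CPM with PE, a log2 fold change of -0.41 ± 0.18 that did not pass (adjusted p = 0.161). Il18 (-0.27 ± 0.29), its binding protein Il18bp (-0.66 ± 0.21), Il36b and Il10 did not pass either.

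Of the 14 described TNF receptors, 12 were tested, 2 rose and 10 did not pass. The share that passed was 16.7%, near the 15.7% of all tested genes. Tnfrsf12a (ENSRNOG00000003546), the TWEAK receptor Fn14, a growth factor-inducible receptor that binds Traf proteins and lacks a death domain, was at 49.1 and 40.4 CPM in the controls and at 246 and 258 CPM with PE. Every PE value was far above every control value, and the replicates were close. It rose by 2.49 ± 0.18, or 5.62-fold (adjusted p = 2.24e-05). Tnfsf12, the gene of its ligand TWEAK, was at 18.8 and 17.5 CPM in the controls and at 10.2 and 13.9 CPM with PE. Although the groups did not overlap, its log2 fold change of -0.60 ± 0.20 did not pass (adjusted p = 0.0771), and it passed without control replicate 1 or 2 (-0.54 and -0.65). Tnfrsf26, another gene of the TNF receptor family, was at 2.14 and 2.98 CPM in the controls and at 4.22 and 5.27 CPM with PE. Tnfrsf26 rose by 0.89 ± 0.26 (adjusted p = 0.0417), but was at 0.73 and missed the threshold without PE replicate 2 (adjusted p = 0.278).

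The 2 receptors of TNF were not called. Tnfrsf1a, the widely expressed receptor with a death domain, was at 239 and 196 CPM in the controls and at 223 and 247 CPM with PE. The groups overlapped, with a log2 fold change of 0.11 ± 0.17 (adjusted p = 0.73; 95% interval -0.27 to 0.49). Tnfrsf1b, the second TNF receptor, was at 35 and 30.5 CPM in the controls and at 23.8 and 21.8 CPM with PE (-0.53 ± 0.17, adjusted p = 0.0672). Tnfrsf11b, osteoprotegerin, the decoy receptor of the bone cytokine RANKL, was at 109 and 130 CPM in the controls and at 188 and 131 CPM with PE. Its second PE library lay at the level of the upper control, and the gene did not pass (0.42 ± 0.20, adjusted p = 0.206). Tnfrsf11a, the receptor RANK, had 49 to 85 reads in the controls and 24 to 38 with PE and was at -1.13 ± 0.42 (adjusted p = 0.106). The remaining tested receptors, Tnfrsf4, Tnfrsf9, Tnfrsf14, Tnfrsf19, Tnfrsf21 and Tnfrsf25, ran from -1.38 for Tnfrsf14 to 0.37 for Tnfrsf21 and did not pass.

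Of the 9 TNF ligands described, 8 were tested and edgeR called none, with 4 at an unadjusted p under 0.05 and none called by DESeq2. Over all tested genes edgeR called 15.7% by adjusted p. The share of all tested genes at an unadjusted p under 0.05 was not computed. Tnfsf18, the ligand of the GITR receptor, had the largest summed count and was at 16.2 and 15.7 CPM in the controls and at 20.4 and 14.9 CPM with PE (0.15 ± 0.20, adjusted p = 0.686). Tnfsf13 (APRIL) was at -0.57 ± 0.19, Tnfsf15 at -0.74 ± 0.27 and Tnfsf13b (BAFF) at -1.08 ± 0.44 (adjusted p = 0.0659, 0.101 and 0.136). In these 3 genes, in Tnfsf9 and in Tnfsf12, both PE libraries lay under both controls, a separation seen in either direction in 56.7% of all tested genes. Tnfsf4, Tnfsf8 and Tnfsf9 did not pass.

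**Figure D2:**
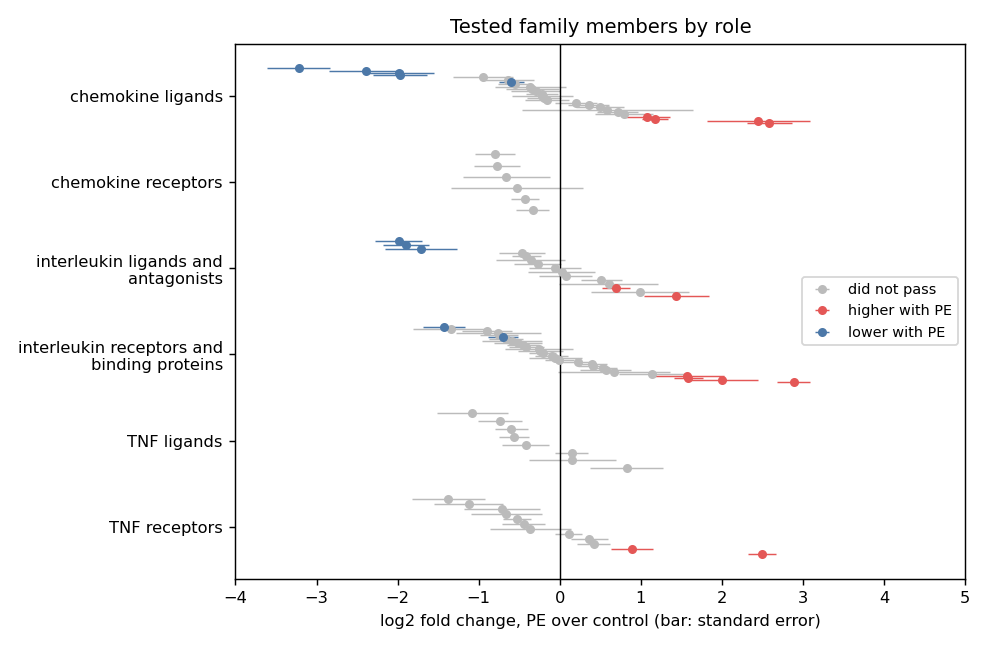
Log2 fold change (PE over control) with its standard error for the 94 tested members with a cytokine or receptor role, in rows by role; red and blue mark genes that passed the test and grey those that did not. Members that passed lie in both directions among chemokine ligands, interleukin ligands and interleukin receptors. None of the 6 chemokine receptors or 8 TNF ligands passed. Over all tested genes 15.7% passed.

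Chemokine ligands changed in both directions, with 4 higher, 5 lower and 16 not passing among 25 tested. The share that passed was 36%, beside 15.7% of all tested genes, and these shares were not compared by a test. The 2 ligands that are made as membrane-bound proteins moved apart. Cxcl16 (ENSRNOG00000026647), which is also a scavenger receptor, was at 235 and 221 CPM in the controls and at 527 and 504 CPM with PE. Its replicates differed little in either group, and it rose by 1.18 ± 0.16 (adjusted p = 0.000796). Cxcl16 overlaps Zmynd15 in the GRCr8 annotation. Cx3cl1 (ENSRNOG00000016326), fractalkine, was at 224 and 221 CPM in the controls and at 149 and 144 CPM with PE. It fell by 0.60 ± 0.15 on the log2 scale (adjusted p = 0.0252). The size held without either PE library (-0.62 and -0.57), but the call did not (adjusted p = 0.413 and 0.468).

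Ccl27, a ligand of skin-homing T cells, was at 1.64 and 2.24 CPM in the controls and at 14 and 9.13 CPM with PE. It rose by 2.58 ± 0.28, or 5.99-fold (adjusted p = 0.000209). In the GRCr8 annotation Ccl27 overlaps Il11ra1, and reads of overlapping genes are uncertain here because the counting strand is not given. Il11ra1, the IL-11 receptor chain, was at -0.004 ± 0.183 (adjusted p = 0.994). Ccl20, the ligand of Ccr6, was at 10.5 and 14.2 CPM in the controls and at 33.9 and 18 CPM with PE. PE replicate 1 stood well above the other 3 libraries. Ccl20 rose by 1.08 ± 0.28 (adjusted p = 0.0283), and without PE replicate 1 it was at 0.56 and did not pass (adjusted p = 0.461). Cxcl14 rose on few reads, 4 and 4 in the controls and 28 and 19 with PE (2.45 ± 0.63, adjusted p = 0.0253). It missed the threshold without control replicate 1, PE replicate 1 or PE replicate 2 (adjusted p = 0.0629, 0.246 and 0.0936), nor with DESeq2 (adjusted p = 0.0849).

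The other ligands that fell were Cxcl13, Ccl5, Ccl19 and Cxcl11. Cxcl13 (ENSRNOG00000024899), which attracts B cells, was at 2.68 and 4.52 CPM in the controls and at 0.463 and 0.297 CPM with PE. It had 26 and 14 reads with PE against 144 and 206 in the controls, and fell by 3.22 ± 0.39 on the log2 scale (adjusted p = 0.000387). Ccl5, which attracts T cells and monocytes, had 83 and 57 reads in the controls and 10 and 17 with PE and fell by 2.39 ± 0.46 (adjusted p = 0.00572). Ccl19, a ligand of Ccr7, had 99 and 62 reads in the controls and 15 and 26 with PE. Ccl19 fell by 1.99 ± 0.43 (adjusted p = 0.0113), and was at -1.54 and missed the threshold without PE replicate 1 (adjusted p = 0.0672). Cxcl11, an interferon-inducible ligand of Cxcr3, was at 3.24 and 4.61 CPM in the controls and at 1.26 and 0.72 CPM with PE (-1.97 ± 0.33, adjusted p = 0.00299). Cxcl10, another interferon-inducible ligand of Cxcr3, was at 3.22 and 3.82 CPM in the controls and at 1.71 and 4.38 CPM with PE. Its PE libraries lay on either side of the controls (-0.22 ± 0.38, adjusted p = 0.759). Both genes overlap Art3 in the GRCr8 annotation, by whole gene spans, and whether this affects their counts was not checked. The summed markers of leukocytes, endothelium, fibroblasts, and mesothelium and epicardium were also lower in both PE libraries. In the fibroblast list only 2 of 9 tested markers were called lower, with a median log2 fold change of -0.02. In the mesothelial and epicardial list 1 marker was called higher. Any link of these sums to the falls of the ligands was not tested.

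**Figure D3:**
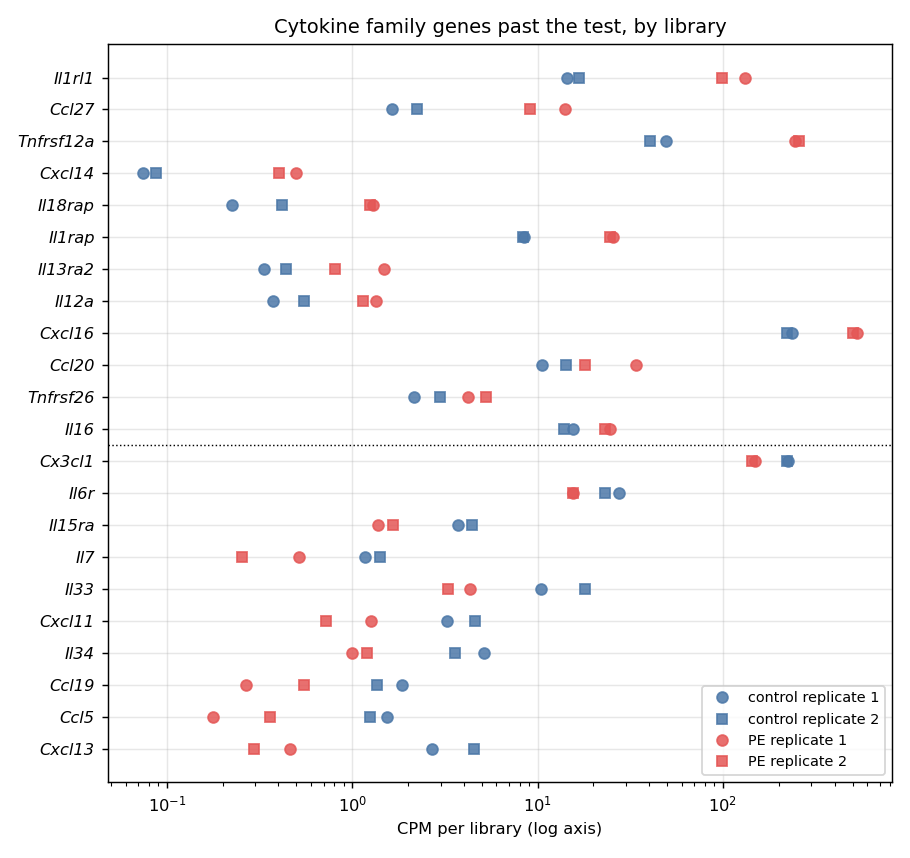
CPM in each library (log axis) of the 22 members that passed, ordered by log2 fold change; blue is control, red is PE, circles are replicate 1 and squares replicate 2, and the dotted line parts the 12 that rose from the 10 that fell. The 22 genes are those that passed, so the separation of the groups in each row follows from their choice (56.7% of all tested genes show it).

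The chemokine ligands with the most reads, Ccl2 and Cxcl1, did not pass. Ccl2, which attracts monocytes and had the largest summed count of all members, was at 505 and 803 CPM in the controls and at 1011 and 663 CPM with PE. Cxcl1, a neutrophil attractant with the second largest count, was at 338 and 465 CPM in the controls and at 758 and 372 CPM with PE. In both genes PE replicate 2 lay between the controls, and neither passed (0.36 ± 0.26 and 0.49 ± 0.29, adjusted p = 0.413 and 0.313). Without PE replicate 1, Ccl2 was at 0.02 and Cxcl1 at -0.10, and without control replicate 2 Ccl2 was at 0.73 and Cxcl1 at 0.74. Cxcl1 did pass with no filter on any gene, and with the replicate numbers crossed as described further on. Ccl7 was at 92.7 and 130 CPM in the controls and at 229 and 136 CPM with PE (0.71 ± 0.25, adjusted p = 0.0864), and passed with DESeq2 (adjusted p = 0.0316) and without control replicate 1, control replicate 2 or PE replicate 2 (0.50, 0.98 and 1.05). Cxcl2 (0.79 ± 0.36), Cxcl3 (0.20 ± 0.26) and Cxcl6 (-0.34 ± 0.32) did not pass (adjusted p = 0.176, 0.665 and 0.548).

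PE replicate 1 exceeded PE replicate 2 in each of these genes and in Ccl20, by 1.53 times for Ccl2 and 2.18 times for Cxcl6. It did so in 19 of the 25 tested chemokine ligands, with a median ratio of 1.37, against 50.3% of all tested genes and a median ratio of 1.00. Control replicate 2 exceeded control replicate 1 in 20 of the 25, against 48.1% of all tested genes. These counts describe single libraries, and genes are not independent replicates.

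**Figure D4:**
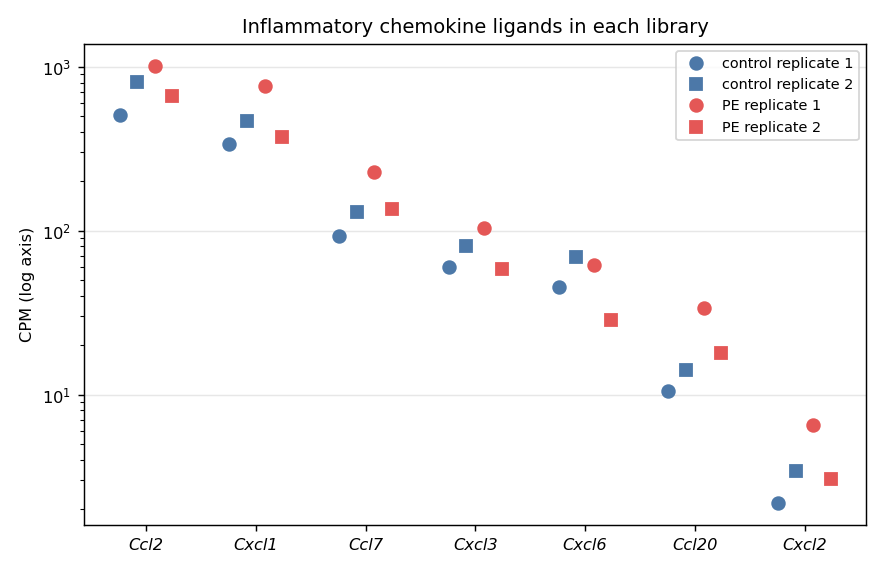
CPM (log axis) of the chemokine ligands Ccl2, Cxcl1, Ccl7, Cxcl3, Cxcl6, Ccl20 and Cxcl2 in each library; blue is control, red is PE, circles are replicate 1 and squares replicate 2. PE replicate 1 is above PE replicate 2 in all 7 genes and control replicate 2 above control replicate 1, so that PE replicate 2 lies within or under the control range for Ccl2, Cxcl1, Cxcl3, Cxcl6 and Cxcl2.

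Ccl3, Ccl4, Ccl6, Ccl9 and Ccl12, ligands made by macrophages among other cells, did not pass. Ccl3 was at 6.39 and 15.9 CPM in the controls and at 6.7 and 4.81 CPM with PE, with control replicate 2 apart from the rest (-0.95 ± 0.37, adjusted p = 0.113), and DESeq2 called it lower (adjusted p = 0.0498), while without control replicate 2 it was at -0.15. Ccl4 was at -0.64 ± 0.32, Ccl12 at -0.30 ± 0.30, Ccl6 at -0.20 ± 0.21 and Ccl9 at -0.16 ± 0.28. Cxcl12, the ligand of Cxcr4 that retains progenitor cells, was at 68.5 and 81.5 CPM in the controls and at 74.4 and 54.4 CPM with PE (-0.22 ± 0.19, adjusted p = 0.515). Ccl17, Ccl21 and Ccl22 did not pass. Reads shared among the closely related Cxcl1, Cxcl2 and Cxcl3 or among the Ccl genes make single values uncertain.

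None of the 6 tested chemokine receptors was called by edgeR or DESeq2, with 3 at an unadjusted p under 0.05. Over all tested genes 15.7% passed in edgeR by adjusted p, and their share at an unadjusted p under 0.05 was not computed. The 6 receptors ran from -0.79 to -0.33, and 59 of the 95 tested members had a negative log2 fold change. Ackr3, the scavenger receptor of Cxcl12, was at 37.1 and 34 CPM in the controls and at 28.9 and 23.9 CPM with PE (-0.43 ± 0.18, adjusted p = 0.135). Cxcr4, the signalling receptor of Cxcl12, was at 9.78 and 7.83 CPM in the controls and at 6.84 and 7.14 CPM with PE (-0.33 ± 0.20, adjusted p = 0.323). Ccr1, a receptor of Ccl3 and Ccl5 on myeloid cells, came nearest to the threshold at -0.79 ± 0.25 (adjusted p = 0.0546). Ackr4 was at -0.77 ± 0.29, and Cxcr5 had 3 to 21 reads per library.

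Of 15 tested interleukin ligands and antagonists, 2 rose and 3 fell, Il33 among the latter. The share that passed was 33.3%, beside 15.7% of all tested genes, and these shares were not compared by a test. Outside the IL-1 family, 4 interleukin ligands passed. Il34 (ENSRNOG00000017602), a ligand of the macrophage growth factor receptor Csf1r, was at 5.12 and 3.58 CPM in the controls and at 0.998 and 1.21 CPM with PE. The groups lay far apart, and it fell by 1.98 ± 0.29 on the log2 scale (adjusted p = 0.0012). Csf1r itself, taken from the leukocyte markers, fell by 0.77 (adjusted p = 0.0148; 0.234 and 0.223 without PE replicate 1 or 2), while Csf1, the other ligand of that receptor, was at 0.16 (adjusted p = 0.6). Il7, a lymphocyte survival factor, had 63 and 64 reads in the controls and 29 and 12 with PE. Il7 fell by 1.71 ± 0.44 (adjusted p = 0.0254), was at -2.32 without PE replicate 1, and was at -1.31 and missed the threshold without PE replicate 2 (adjusted p = 0.181). Il16, a chemoattractant cut from a PDZ-domain protein, was at 15.6 and 14 CPM in the controls and at 24.6 and 23.2 CPM with PE. Il16 overlaps a pseudogene in the GRCr8 annotation. It rose by 0.70 ± 0.18 (adjusted p = 0.0237), and missed the threshold without PE replicate 1 or 2 (0.66 and 0.74, adjusted p = 0.316 and 0.196). Il12a, a subunit shared by IL-12 and IL-35, had 20 and 25 reads in the controls and 75 and 54 with PE (1.44 ± 0.40, adjusted p = 0.0362). It missed the threshold without control replicate 1, PE replicate 1 or PE replicate 2 (adjusted p = 0.0597, 0.254 and 0.0876), nor with DESeq2 (adjusted p = 0.0697). Its partner Il12b had 0 to 10 reads per library. Il15, Il17b, Il17d and Il23a did not pass, with log2 fold changes from -0.47 for Il17d to 0.07 for Il17b.

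Of 28 tested interleukin receptors and binding proteins, 4 rose and 2 fell. The share that passed was 21.4%, beside 15.7% of all tested genes, and these shares were not compared by a test. Besides Il1rl1, Il1rap and Il18rap, the gene that rose was Il13ra2, a decoy receptor of IL-13, with 18 and 20 reads in the controls and 83 and 38 with PE (1.57 ± 0.46, adjusted p = 0.0441). Il13ra2 missed the threshold without PE replicate 1 (1.06, adjusted p = 0.531) or with DESeq2 (adjusted p = 0.0688). Il15ra, which presents IL-15 to neighbouring cells, was at 3.71 and 4.41 CPM in the controls and at 1.37 and 1.65 CPM with PE. Il15ra fell by 1.43 ± 0.26 (adjusted p = 0.00432), while Il15 was at -0.06 ± 0.32 (adjusted p = 0.928). Il6r, the ligand-binding chain of the IL-6 receptor, was at 27.4 and 23.1 CPM in the controls and at 15.5 and 15.6 CPM with PE. It fell by 0.70 ± 0.18 (adjusted p = 0.025), overlaps She in the GRCr8 annotation, and missed the threshold without PE replicate 1 or 2 (-0.69 and -0.70, adjusted p = 0.316 and 0.293).

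Il4r, the IL-4 and IL-13 receptor chain with the second largest summed count of its role, was at 77.4 and 65 CPM in the controls and at 99.1 and 108 CPM with PE. The groups did not overlap, and its log2 fold change of 0.54 ± 0.17 missed the threshold in edgeR (adjusted p = 0.0554) and passed in DESeq2 (adjusted p = 0.0288). Its partners Il13ra1 (0.22 ± 0.21) and Il2rg (-0.75 ± 0.24) did not pass in edgeR, and DESeq2 called Il2rg lower (adjusted p = 0.0353). Il17ra and Il17rc, which form the IL-17 receptor, were at 0.40 ± 0.18 and -0.45 ± 0.20 (adjusted p = 0.163 and 0.167). The other tested receptors, Il2ra, Il3ra, Il7r, Il10ra, Il10rb, Il12rb2, Il17rd, Il17re, Il20rb, Il22ra1 and Il27ra, ran from -1.35 for Il22ra1 to 1.14 for Il12rb2 and did not pass. Il4i1, which the name rule also takes, encodes an amino acid oxidase and not a cytokine, and it did not pass (-0.52 ± 0.58).

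Lists of signalling genes next to these receptors are given by their counts, beside the 15.7% of all tested genes that passed, and the lists were not compared by a test. Of 16 NF-kB factors, inhibitors and kinases, 1 rose, 1 fell and 14 did not pass (median log2 fold change 0.03). Nfkbiz, an inducible nuclear cofactor of NF-kB, was at 33.3 and 43.4 CPM in the controls and at 96.6 and 70.6 CPM with PE (1.12 ± 0.21, adjusted p = 0.0046; 0.0866 without PE replicate 1). Map3k14, the kinase NIK of the alternative NF-kB pathway, fell by 0.88 ± 0.19 on the log2 scale (adjusted p = 0.0114; 0.297 without PE replicate 1). Among 18 TNF receptor adaptors and death signalling genes, Ripk3, a kinase of necroptosis, rose by 0.79 ± 0.20 (adjusted p = 0.0254) and 17 did not pass (median 0.05). In the list of IL-1 and Toll-like receptor signalling, Pycard, an inflammasome adaptor, fell by 0.94 ± 0.27 (adjusted p = 0.0426) and 13 of 14 did not pass (median -0.23). Of 15 JAK, STAT and SOCS genes, Socs5 rose by 0.75 ± 0.15 (adjusted p = 0.00832) and 14 did not pass (median -0.13). The calls of Ripk3, Pycard and Socs5 were lost without PE replicate 1 (adjusted p = 0.117, 0.242 and 0.214) and without PE replicate 2 (adjusted p = 0.185, 0.219 and 0.175).

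Of 15 other inflammatory mediators and adhesion molecules tested, 6 rose, 3 fell and 6 did not pass (median 0.49). Csf3, the granulocyte growth factor, was at 1.75 and 3.51 CPM in the controls and at 21.4 and 11.2 CPM with PE (2.64 ± 0.37, adjusted p = 0.000983). Ptgs2, the inducible cyclooxygenase, rose by 2.53 ± 0.28 and Lif, a cytokine of the IL-6 family, by 2.12 ± 0.22 (adjusted p = 0.000245 and 0.000177). Csf2, a growth factor of granulocytes and macrophages, rose by 1.73 ± 0.32 (adjusted p = 0.00449). Selp, the adhesion molecule P-selectin, and Ptx3, a secreted pentraxin, also rose, by 1.40 and 1.20 (adjusted p = 0.000459 and 0.00239), and Ptx3 lost its call without PE replicate 1 (adjusted p = 0.0548). Those that fell were Vcam1, a leukocyte adhesion molecule (-1.28 ± 0.23, adjusted p = 0.00395), complement C3 (-0.87 ± 0.18, adjusted p = 0.00943) and Spp1, osteopontin (-0.84 ± 0.20, adjusted p = 0.0187). All 3 lost their calls without PE replicate 2 (adjusted p = 0.0556, 0.246 and 0.358), and C3 and Spp1 also without PE replicate 1 (adjusted p = 0.0706 and 0.0516). In Csf3, Ptgs2, Lif and Csf2, PE replicate 1 was again above PE replicate 2, but PE replicate 2 lay above both controls. Over the 5 lists 14 genes passed, against 7 and 8 without PE replicate 1 or 2 and 27 without either of control replicates 1 and 2 (left out singly).

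**Figure D5:**
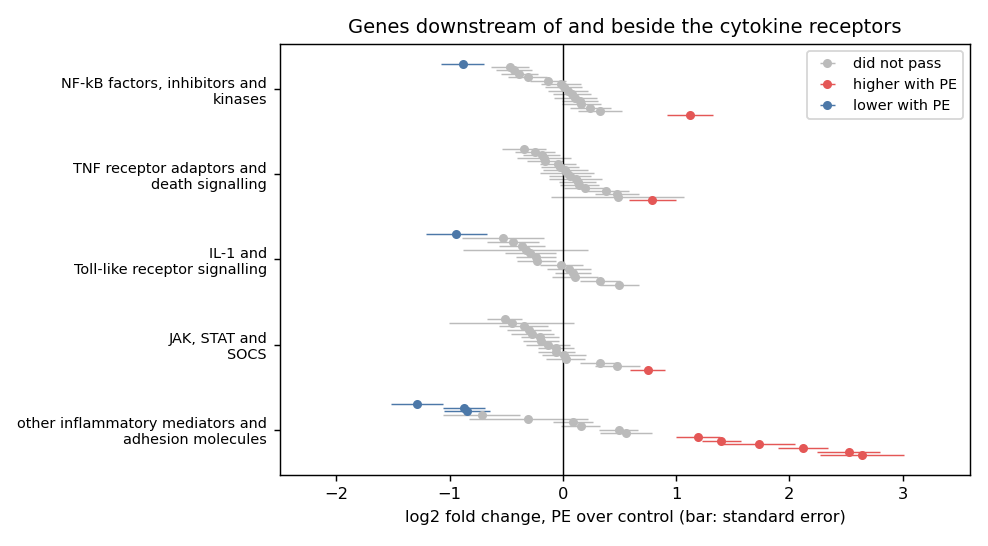
Log2 fold change (PE over control) with its standard error for the tested genes of 5 lists of signalling and inflammatory genes; red and blue mark genes that passed and grey those that did not. The first 4 lists hold 1 or 2 genes each that passed, while the list of mediators and adhesion molecules holds 9 of 15.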

How the data were processed

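Per the submitters' processing notes, cutadapt 2.0, STAR 2.4.2a and featureCounts 1.6.4 were used with build Rnor_6.0. The sources used here do not give their order, parameters, annotation or strand choice. The authors deposited raw counts per gene for each library. Their second deposited table, a DESeq2 comparison, supplied gene names and types here. Its log2 fold changes, p-values, mean signal (normalized count) and Wald score were deposited by the authors. For the described members its adjusted p-values equal, to the digits printed, those of the DESeq2 fit made here, which therefore repeats the authors' comparison.

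Counts were fitted with edgeR 4.0.16 (limma 3.58.1, R 4.3.3) using its quasi-likelihood F test, TMM factors and its default filter (minimum count 10, minimum total 15). Benjamini-Hochberg adjusted p under 0.05 over the genes tested was the threshold. DESeq2 1.42.0 was an alternative. CPM values use TMM-adjusted library sizes. Standard errors are the log2 fold change divided by the root of the F statistic. They rest on 2 residual and 8.1 prior degrees of freedom. One read is worth 0.0178 to 0.0219 CPM. Counts were also simulated with far fewer changed genes than passed here, and with spread taken from the fitted trend. On these simulated counts the fit recovered 14% of 1.5-fold, 64% of 2-fold, 90% of 4-fold and 98% of 8-fold changes. Recovery in the real data may differ from these shares, and small changes can miss the threshold.

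Members and lists were chosen with earlier results of these data known. Library values are given for members that passed and the 2 with the largest summed count in each role, and for others named for their role. Promoter windows came from RefSeq (GRCr8), matched by gene identifier or symbol. Single values of some genes are not reported here.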

Additional observations from a re-analysis of the deposited data

How the results depend on the processing

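Of the 22 members that passed, 12 did so under each of the 12 alternatives run, namely Il1rl1, Il1rap, Il18rap, Tnfrsf12a, Cxcl16, Ccl27, Cxcl11, Cxcl13, Ccl5, Il33, Il34 and Il15ra, and none of the 22 changed direction. Among the others, leaving out control replicate 1 or 2 put Il1a at -0.57 or 1.05, against 0.02 with every library, and the cause was not tested. The number of members that passed was 22 and became 37 without a filter, where all 107 were tested. Over all genes the number rose from 2393 to 3189 without a filter. Leaving out a library gave 15 to 46 members, 1205 to 4755 of all genes (2393 with every library) and 7 to 27 genes of the signalling lists. Where a group kept a single library, it is assumed to vary like the other pair. The members' median log2 fold change ran from -0.34 to -0.08 over all alternatives, and was -0.08 without control replicate 2. DESeq2 called 23 members, of which 19 were among the 22, and 2555 of all genes.

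With the replicate number as a block, 21 members and 1964 genes passed, and Cx3cl1, Il16 and Il6r did not (adjusted p = 0.139, 0.0903 and 0.0911). The labels do not say that the numbers pair the libraries, and the differences between replicates 1 and 2 in the 2 groups correlated at -0.39 over the tested genes. With the numbers crossed between groups, an alternative chosen after seeing the data, 48 members, 25 genes of the signalling lists and 4677 of all genes passed.

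Low counts limit Cxcl14, Il12a, Il18rap, Il13ra2, Il7, Ccl5 and Ccl19, and 12 members could not be tested.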
